A study of Mus musculus with 32 samples.

Results

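The genes described here form the cornified envelope and the permeability barrier of the epidermis. They are 39 genes, chosen by name for their known roles and found by symbol through their Ensembl identifiers, of 50600 genes in the deposited tables. The choice was made with earlier results of these data known. The samples were 32 primary melanomas of C57BL/6J mice, with 8 tumours in each combination of genotype and sex. All tumours carried the oncogenic transgene Tyr::NrasQ61K, 1 inactive copy of the tumour suppressor Cdkn2a and floxed alleles of Cdh1, which encodes E-cadherin. Tumours labelled Ecad had no Cre, and those labelled ΔEcad came from mice in which a Tyr-driven Cre deletes Cdh1 in the melanocyte lineage. The ΔEcad labels write NRAS in the position where the methods of the study give the Cre transgene, and the design was read from the methods. A tyrosinase promoter drives both transgenes, so keratinocytes were not the intended target of the deletion. Which cells of a tumour had lost Cdh1 was not measured. Ages were not given, and the labels number the tumours within each group without saying whether any came from the same mouse, so p-values measure the spread between these tumours.

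Keratinocytes leave the basal layer of the epidermis, withdraw from the cell cycle and end as dead, flattened corneocytes. Beneath their membrane, transglutaminases cross-link precursor proteins such as loricrin and the small proline-rich proteins into the cornified envelope, ceramides are attached outside it, and proteases free the outermost cells. Melanocytes do not form such an envelope. These were bulk tumours, in which fewer cells of a type and less RNA per cell cannot be told apart.

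Of the 39 genes, 18 lie on chromosome 3, between S100a14 and Rptn at chr3:90526856-93399442 (GRCm38, GENCODE M21), where the epidermal differentiation complex gathers envelope genes. RefSeq promoter windows (GRCm38.p6) were matched for 33 members, as 38 windows of 250 bases before the start of transcription. The AP-1 motif TGANTCA, read on both strands and its own reverse complement, was in 15 of the 38 windows (39.5%) and in 6.75% of the 32851 windows of all genes. It was found for 9 of the 17 members on chromosome 3 that had a window, among them 4 of 6 small proline-rich genes, and for 0 of 5 late cornified envelope genes. The TATA motif TATAAA, on both strands whose letters cannot overlap the former, was in 39.5% of the members' windows and in 12.4% of all windows. The motif AACCNGTT, of grainyhead-like factors, which can share bases with TATAAA, was in 1 of the 38 windows and in 1.79% of all windows. A match is a stretch of letters and does not show a bound site.

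5 of these windows are printed because their genes carry the results below, each as 250 bases read 5′ to 3′ on the strand of the gene, with TGANTCA or its reverse complement in capitals. Lor lies at chr3:92083143-92083392 on the minus strand, Sprr1a at chr3:92485882-92486131 on the minus strand, Ivl at chr3:92573736-92573985 on the minus strand, Krtdap at chr7:30787655-30787904 on the plus strand and Sprr4, which holds no match, at chr3:92500494-92500743 on the minus strand.
Lor: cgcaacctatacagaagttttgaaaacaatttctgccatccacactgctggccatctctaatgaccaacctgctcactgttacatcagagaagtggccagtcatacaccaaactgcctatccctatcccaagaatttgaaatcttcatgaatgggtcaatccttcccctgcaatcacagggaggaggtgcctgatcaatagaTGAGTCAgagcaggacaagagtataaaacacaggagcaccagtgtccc
Sprr1a: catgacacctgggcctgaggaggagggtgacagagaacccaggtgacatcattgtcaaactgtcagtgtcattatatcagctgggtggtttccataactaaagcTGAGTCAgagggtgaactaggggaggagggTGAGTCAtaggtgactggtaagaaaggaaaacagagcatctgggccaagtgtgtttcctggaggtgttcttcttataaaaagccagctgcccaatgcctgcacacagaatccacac
Ivl: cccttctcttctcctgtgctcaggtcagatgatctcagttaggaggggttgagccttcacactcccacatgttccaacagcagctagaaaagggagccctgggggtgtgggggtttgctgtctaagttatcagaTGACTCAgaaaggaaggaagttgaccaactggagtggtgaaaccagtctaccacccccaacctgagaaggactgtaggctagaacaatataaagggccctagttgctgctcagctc
Krtdap: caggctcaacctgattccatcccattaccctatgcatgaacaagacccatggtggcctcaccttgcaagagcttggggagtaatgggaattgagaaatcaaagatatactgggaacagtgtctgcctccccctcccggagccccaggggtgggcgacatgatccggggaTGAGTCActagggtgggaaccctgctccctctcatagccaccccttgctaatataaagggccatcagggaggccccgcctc
Sprr4: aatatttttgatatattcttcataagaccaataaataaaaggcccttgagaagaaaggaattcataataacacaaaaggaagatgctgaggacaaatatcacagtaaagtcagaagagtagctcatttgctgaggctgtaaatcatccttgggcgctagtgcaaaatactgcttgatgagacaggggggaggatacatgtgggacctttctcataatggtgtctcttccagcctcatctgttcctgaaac
The first base of the match lay 48 bases before the start of Lor, 146 and 116 before that of Sprr1a, 116 before that of Ivl and 81 before that of Krtdap.

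Total counts per tumour lay between 24036333 and 63923086. Cdh1, the targeted gene, had a lowest, median and highest level of 25, 145 and 282 TPM (a level per transcript length, scaled to the library) in Ecad males, 2.16, 30.6 and 151 in Ecad females, 0.79, 3.29 and 65.2 in ΔEcad males and 0.17, 46.7 and 143 in ΔEcad females. Between the genotypes its log2 fold change was -0.0024 ± 0.87 SE in females (edgeR adjusted p = 0.999) and -3.33 ± 0.96 SE in males (edgeR adjusted p = 0.365). Its RNA thus did not separate the labels in females, and ΔEcad below means labelled ΔEcad. The library labelled ΔEcad male 2 had 0 counts of 4 Y-linked genes, against at least 1459 in the other males, and Xist at 6.41 TPM, against at most 0.2. The summed level of 6 melanocytic markers was 18.9 TPM in the library labelled ΔEcad male 7, where they were near absent, and between 5518 and 74512 TPM in the other 31 tumours. Counts of members called are therefore given below without each of these libraries.

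The 39 genes went from near silence to some of the most abundant transcripts of a tumour. Their summed level had a lowest, median and highest value of 7.32, 5529 and 11564 TPM in Ecad males, of 3.84, 15.7 and 826 TPM in Ecad females, of 3.87, 450 and 8392 TPM in ΔEcad males and of 3.66, 2215 and 28858 TPM in ΔEcad females. All groups thus reached down to the same floor and overlapped, and the Ecad females had no tumour above 826 TPM. In each gene, 3 counts is what a count of 0 allows, as counting error only. Of the 39 members, 35 were at or under that number in at least 1 tumour, while 9 passed 1000 TPM in at least 1 tumour. The library labelled ΔEcad female 2 held the highest level of 25 members and ΔEcad female 1 that of 8 others. Krtdap, which encodes a peptide secreted by differentiating keratinocytes, was the leading member in 9 tumours, and Lor and Sbsn each in 5.

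**Figure D1:**
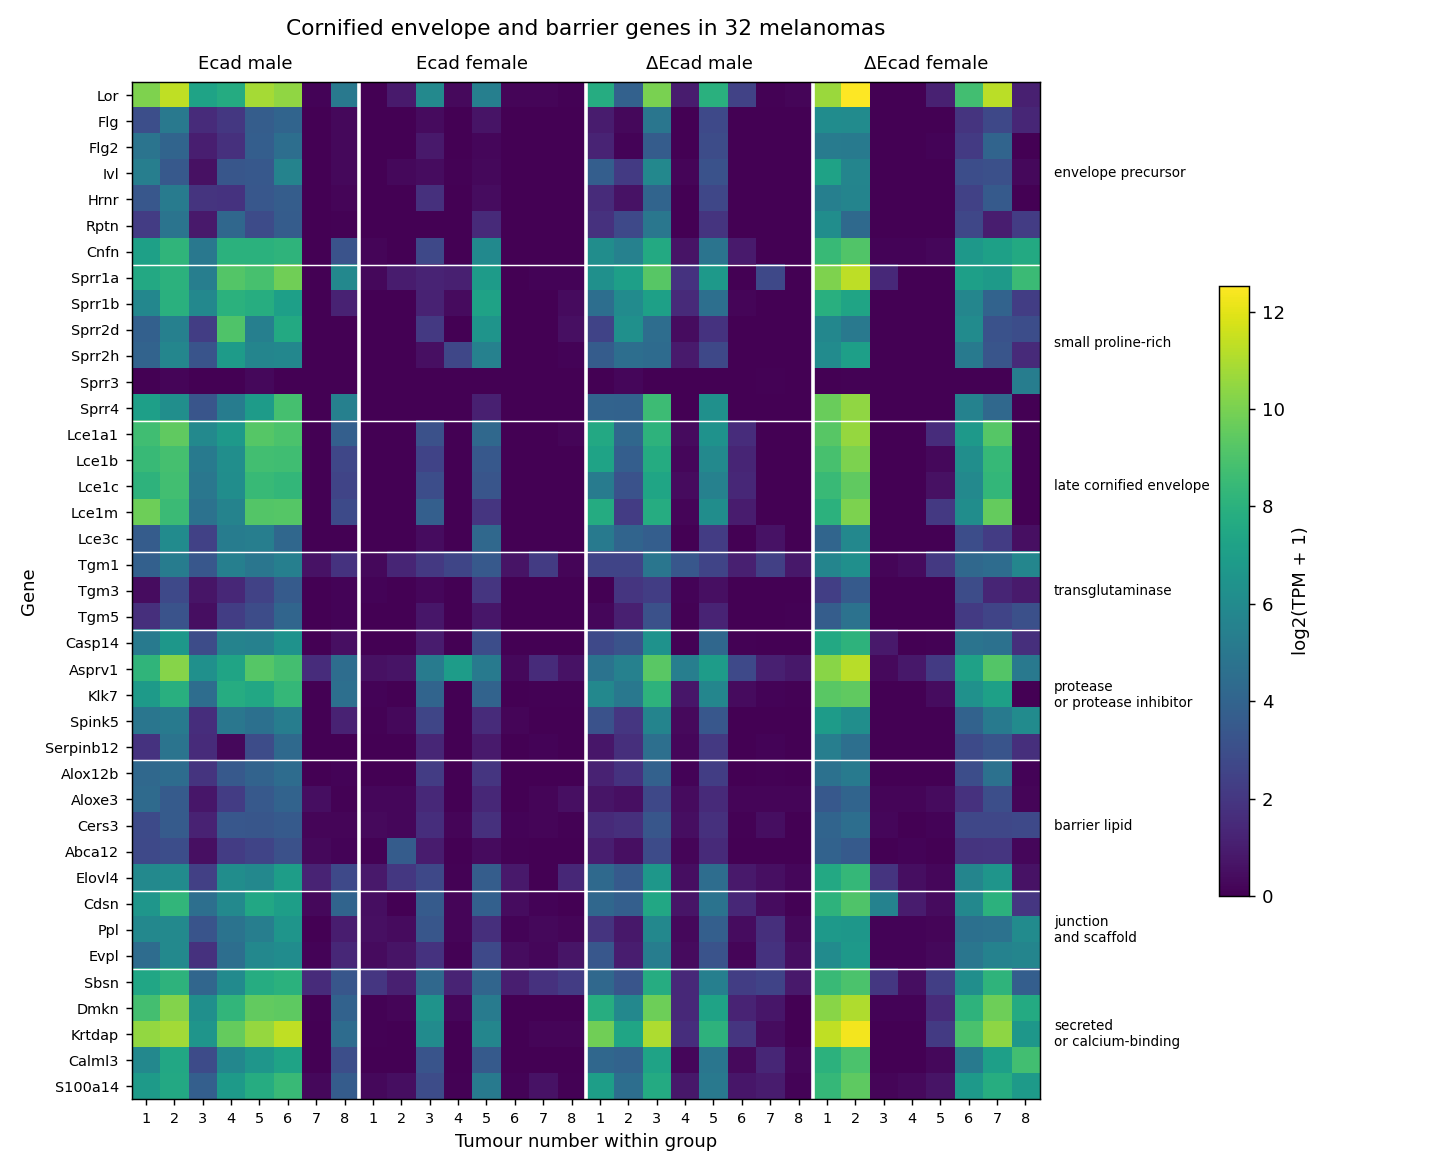
Level of each of the 39 genes (rows, by role) in each of the 32 tumours (columns, by group), coloured by log2(TPM + 1). Most rows are bright in the same tumours, with ΔEcad female 2 brightest for 25 genes, while Ecad male 7, 6 of the 8 Ecad females, ΔEcad males 7 and 8 and ΔEcad females 3 and 4 are dark for most genes, with 25 to 32 of the 39 at or under 3 counts.

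The members rose and fell over the same tumours as markers of the living epidermis. Of the 8 tumours highest in summed members, 7 were among the 8 highest in a list of 7 basal keratinocyte genes, among them the basal keratins Krt5 and Krt14. Between 6 and 8 of the 8 highest tumours of a single member were shared with that list for 35 of the 39 genes, and 4 or 5 for the other 4. Among the latter, Sprr3 was at 0 TPM in most tumours, so ties set its order. The basal list summed to between 60.7 and 16823 TPM in Ecad males, 23.9 and 1576 in Ecad females, 21.4 and 7613 in ΔEcad males and 22.1 and 16552 in ΔEcad females. Keratins of the suprabasal layers (Krt1, Krt10, Krt2, Krt77 and Krt80) summed to between 17.0 and 11688, 0.81 and 388, 2.65 and 7043, and 5.36 and 17894 TPM in the same order, and 10 hair follicle genes to between 0.06 and 499.9, 0.03 and 4.04, 0.03 and 324, and 0.13 and 4364 TPM. Krt14 was at 0 in Ecad male 7, Ecad females 2, 4 and 6 and ΔEcad females 3 and 4. In the 16 tumours labelled ΔEcad, the 8 highest in summed members were also the 8 highest in Cdh1, and in the Ecad tumours 7 of 8 were. These shared orders are descriptions over bulk libraries, in which all the genes share the same RNA.

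**Figure D2:**
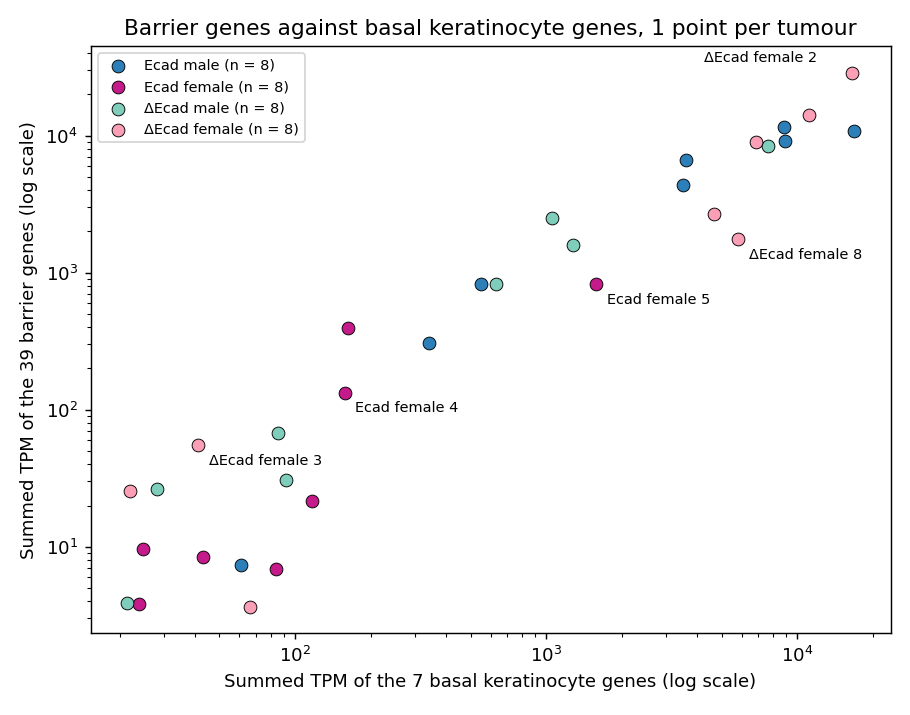
Summed TPM of the 39 barrier genes (vertical, log scale) against that of 7 basal keratinocyte genes (horizontal, log scale), 1 point per tumour, coloured by group. The barrier sum runs from 3.66 to 28858 TPM along the basal sum, and ΔEcad female 8 lies under tumours of like basal sum.

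Among the envelope precursors, Lor encodes loricrin, the main protein of the mature envelope. Its level had a lowest, median and highest value of 0.09, 657 and 2593 TPM in Ecad males, 0, 0.185 and 59.3 in Ecad females, 0.04, 9.27 and 1020 in ΔEcad males and 0, 214 and 5945 in ΔEcad females. Ivl encodes involucrin, a scaffold of the early envelope, and was far lower. Its median was 9.65 TPM in Ecad males (0 to 48.2), 0.03 in Ecad females (0 to 0.34), 1.78 in ΔEcad males (0 to 57.2) and 3.46 in ΔEcad females (0 to 148). The Ecad females were low in every tumour, while the other groups ran from 0 upwards. In females Ivl had a log2 fold change between the genotypes of 7.75 (SE 2.08 by edgeR, adjusted p = 0.052), just short of the threshold.

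Filaggrin (Flg) aggregates keratin filaments and its breakdown products hold water in the skin. Flg lay between 0 and 32.4 TPM in Ecad males, 0 and 0.58 in Ecad females, 0 and 29.1 in ΔEcad males and 0 and 68.5 in ΔEcad females, and its log2 fold change in females was 7.16 ± 2.15 SE (edgeR adjusted p = 0.070). Flg2, Hrnr and Rptn, which encode related proteins with the same fused S100 domain, peaked at 36.8, 49.2 and 69.4 TPM, in ΔEcad female 1 or 2. Cnfn, the gene of cornifelin, reached 563 TPM in ΔEcad female 2 and had medians of 196, 0, 14.2 and 120 TPM in Ecad males, Ecad females, ΔEcad males and ΔEcad females. Counts of Flg, Rptn and Sbsn are uncertain because another annotated gene overlaps each on its own strand, and those of Hrnr, Tgm1, Tgm3 and Tgm5 because a gene overlaps each on the opposite strand and no source used here says whether strand entered the counting.

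The small proline-rich proteins are short cross-bridges between loricrin molecules. Of their 6 genes, Sprr2d and Sprr2h shared only 4 and 5 of their 8 highest tumours with the summed level. Sprr3 was at 0 TPM in most tumours, so ties set its order and it is left out here. Sprr4 was at or under 3 counts in all 8 Ecad females, where the only counts were 3 reads in Ecad female 5. In ΔEcad females it was at or under 3 counts in 4 tumours and reached 805 and 1409 TPM in ΔEcad females 1 and 2, with a median of 9.06 TPM. Its median was 57.8 TPM in Ecad males (0 to 452) and 7.10 in ΔEcad males (0 to 389). Sprr4 was the only member called in females, with a log2 fold change of 10.6 (SE 2.40 by edgeR, adjusted p = 0.039). That value depends on a near-empty group. From the pooled counts, 7103 in ΔEcad and 3 in Ecad females, the ratio adjusted for library size was 2548.8, with a 95% exact interval from 871.8 to 12362.3 that covers counting error only.

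Sprr2d and Sprr1b, members of families induced in stressed or inflamed skin, were highest elsewhere. Sprr2d reached 533 TPM in Ecad male 4, against at most 197 in any other tumour. Its median was 27.5 TPM in Ecad males (0 to 533), 0 in Ecad females (0 to 89.1), 1.44 in ΔEcad males (0 to 76.2) and 7.33 in ΔEcad females (0 to 65.5). Only 4 of its 8 highest tumours were among the 8 highest in summed members, against 8 of 8 for Lor. The sum includes both genes, and an abundant one such as Lor weighs more in it, so this contrast is partly built in. Sprr1b peaked at 260 TPM, also in Ecad male 4, and Sprr1a and Sprr2h at 2470 and 132 TPM, in ΔEcad female 2. In females the log2 fold changes of Sprr2d, Sprr1b and Sprr2h did not pass the test, at a lowest value of 0.83 for Sprr2d.

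Sprr3, expressed in oesophagus and other wet stratified epithelia, was at or under 3 counts in 31 of the 32 tumours. In ΔEcad female 8 it stood at 38.3 TPM, against at most 0.19 TPM elsewhere. It was the 1 member that did not pass the filter on low counts, and 38 were tested.

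The late cornified envelope genes act at the end of the programme, and the 4 members of the Lce1 cluster peaked in the same tumours. Lce1b had a lowest, median and highest level of 0, 214 and 453 TPM in Ecad males, 0, 0 and 9.85 in Ecad females, 0, 7.04 and 207 in ΔEcad males and 0, 35.7 and 1055 in ΔEcad females. Lce1a1, Lce1c and Lce1m reached 1486, 713 and 1076 TPM, each in ΔEcad female 2. For all 4, each of the 8 highest tumours was among the 8 highest in summed members, a sum that includes these genes. In females Lce1b, Lce1a1 and Lce1c had log2 fold changes of 6.94 ± 2.08, 6.71 ± 2.06 and 6.39 ± 1.98 SE (edgeR adjusted p = 0.070, 0.076 and 0.078), none past the threshold. Lce3c, of a cluster linked to barrier repair, peaked at 64.8 TPM in Ecad male 2. Of the 50-base words of Lce1a1, Lce1b, Lce1c and Lce3c, between 19.9% and 35.7% also occur in transcripts of another gene, so their reads may be shared.

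**Figure D3:**
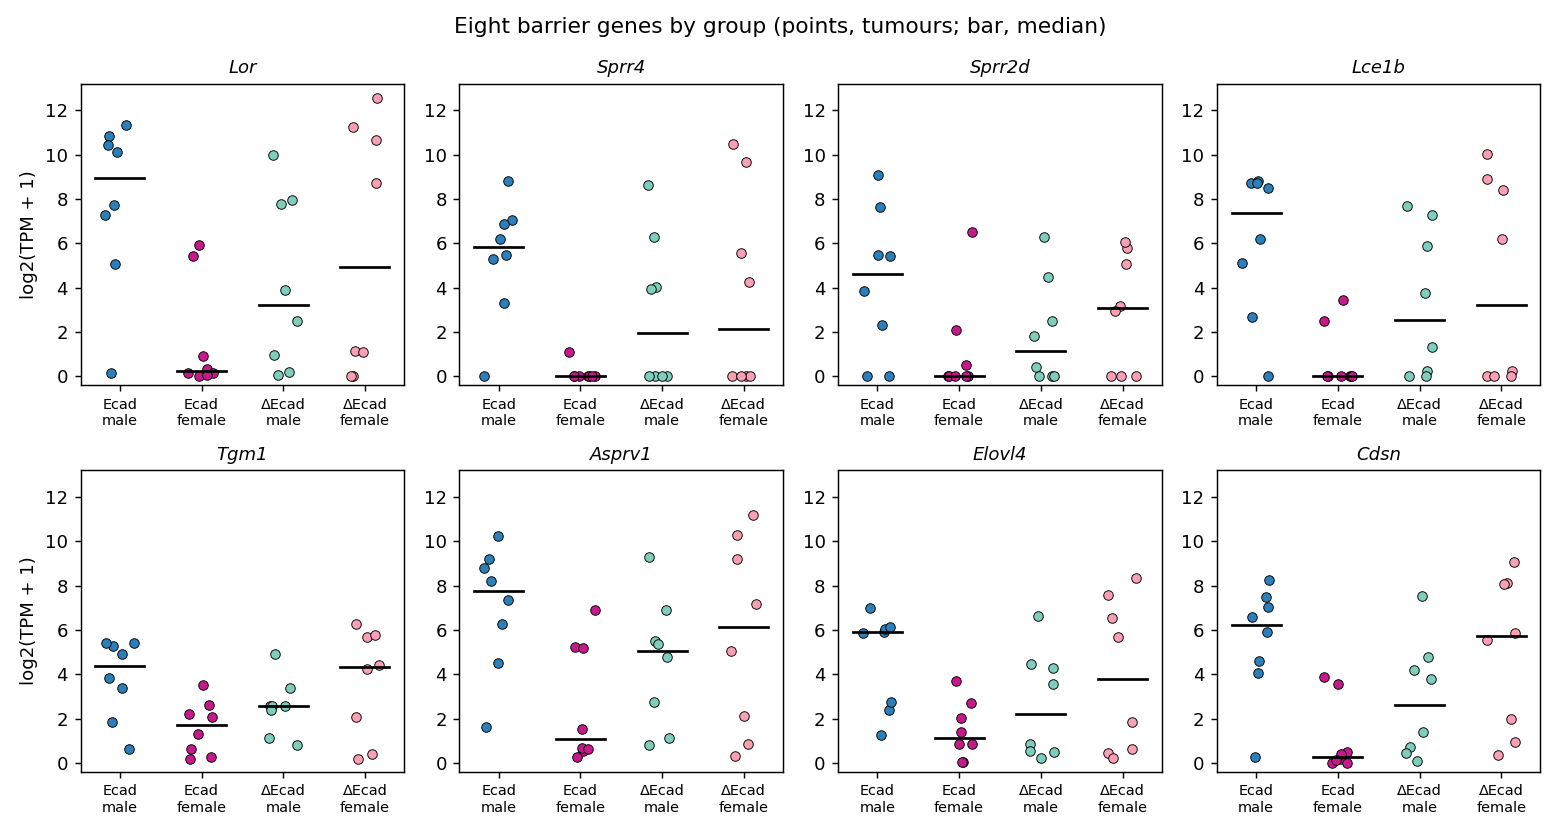
Levels of 8 barrier genes as log2(TPM + 1) in the 4 groups (points, tumours; bar, median of 8). In Ecad females Lor stays under 60 TPM and Sprr4 near 0, whereas the other 3 groups spread from near 0 to the highest levels.

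Transglutaminases form the covalent links of the envelope. Tgm1, the membrane-bound enzyme that builds it, had over 3 counts in every tumour, as did Asprv1, Evpl and Sbsn. Its level had a lowest, median and highest value of 0.55, 21.1 and 42.0 TPM in Ecad males, 0.13, 2.35 and 10.4 in Ecad females, 0.76, 4.98 and 29.1 in ΔEcad males and 0.12, 19.4 and 75.4 in ΔEcad females. Tgm3 peaked at 11.02 TPM in Ecad male 6, and Tgm5 at 25.2 TPM in ΔEcad female 2.

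The proteases and their inhibitors process filaggrin and govern shedding. Asprv1, an aspartic protease that cleaves profilaggrin, had a lowest, median and highest level of 2.03, 229 and 1215 TPM in Ecad males, 0.22, 1.24 and 119 in Ecad females, 0.76, 33.2 and 635 in ΔEcad males and 0.23, 88.1 and 2315 in ΔEcad females. It stayed above 3 counts in the tumours where Flg, its substrate's gene, was at 0. Klk7, which cleaves the links between corneocytes, had medians of 148, 0.04, 15.96 and 40.8 TPM in Ecad males, Ecad females, ΔEcad males and ΔEcad females, and peaked at 709 TPM. Spink5, which encodes an inhibitor of such kallikreins, reached 118 TPM in ΔEcad female 1. Casp14, a caspase of cornification, peaked at 270 TPM in ΔEcad female 2, and Serpinb12, a serpin, at 40.5 TPM in ΔEcad female 1.

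The lipid genes make and export the ceramides of the barrier. Elovl4, which lengthens very long fatty acids, lay between 1.39 and 124 TPM in Ecad males, 0.02 and 12.1 in Ecad females, 0.16 and 97.1 in ΔEcad males and 0.18 and 327 in ΔEcad females. Its log2 fold change in females was 4.71 ± 1.46 SE (edgeR adjusted p = 0.077), which did not pass. The lipoxygenase genes Alox12b and Aloxe3 peaked at 34.2 TPM in ΔEcad female 2 and at 19.1 TPM in Ecad male 1, and the ceramide synthase gene Cers3 at 22.5 TPM in ΔEcad female 2. Abca12, the lipid transporter of lamellar granules, reached 14.1 TPM in ΔEcad female 1 and 11.5 TPM in Ecad female 2.

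Cdsn encodes corneodesmosin, the glue of the outermost desmosomes. Its level had a lowest, median and highest value of 0.22, 76.5 and 304 TPM in Ecad males, 0, 0.225 and 13.5 in Ecad females, 0.06, 7.33 and 185 in ΔEcad males and 0.29, 51.5 and 536 in ΔEcad females, and its log2 fold change in females was 5.41 ± 1.63 SE (edgeR adjusted p = 0.071). Ppl and Evpl encode periplakin and envoplakin, the plakin scaffold on which the envelope starts. They peaked at 109 TPM in ΔEcad female 1 and 107 TPM in ΔEcad female 2. Evpl had a log2 fold change in females of 4.70 (SE 1.39 by edgeR, adjusted p = 0.066).

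The secreted and calcium-binding members include Krtdap, the most abundant of the 39 in more tumours than any other member. Krtdap had a lowest, median and highest level of 0, 1105 and 2580 TPM in Ecad males, 0, 0.09 and 65.9 in Ecad females, 0, 83.0 and 2018 in ΔEcad males and 0, 298 and 5073 in ΔEcad females. Dmkn, the gene of the secreted protein dermokine, reached 2117 TPM, S100a14 683 TPM and Calml3, a calmodulin-like gene, 504 TPM, each in ΔEcad female 2. Sbsn, the gene of suprabasin, never fell to 0 and was at 0.37 TPM or more in every tumour, with medians of 116, 2.69, 6.94 and 42.5 TPM in Ecad males, Ecad females, ΔEcad males and ΔEcad females. Its log2 fold change in females was 4.60 ± 1.29 SE (edgeR adjusted p = 0.056).

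Some tumours held a makeup of their own, and they were singled out after their values were seen. ΔEcad female 8 had a strong basal list, at 5800 TPM, and the second highest Calml3, at 421 TPM, and Tgm1, at 53.3 TPM. Its Ppl, Evpl and Spink5 stood at 65.0, 50.7 and 65.6 TPM. Yet Lor was at 1.16 TPM and Lce1a1, Lce1b, Lce1c, Lce1m, Sprr4 and Klk7 were at 0 there. Its ratio of Calml3 to Lor was 363, against at most 1.07 in the other tumours in which both genes were above 3 counts. Krt13 and Krt4, keratins of mucosal epithelium, were at 494 and 70.3 TPM in this tumour, against at most 0.94 and 3.75 elsewhere. The part of mucosal epithelium in this makeup was not tested.

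Ecad male 4, Ecad female 5 and ΔEcad male 2 had more Sprr2d than Lor transcripts, as did ΔEcad female 8. Their ratio of Sprr2d to Lor was 2.52, 2.14 and 5.45, and ΔEcad female 8 had 5.84, against at most 0.154 in each other tumour where both were above 3 counts. The genes S100a8 and S100a9, of activated keratinocytes and of neutrophils, were at 1913 and 3341 TPM in Ecad male 4, at 157 and 229 TPM in Ecad female 5 and at 431 and 839 TPM in ΔEcad male 2. They were also at 711 and 1368 TPM in Ecad male 6 and at 730 and 1356 TPM in ΔEcad female 6, whose ratios were 0.141 and 0.154. Their part in the ratio was not tested.

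In 4 other tumours a single gene made up most of the summed level. Asprv1 formed 89.2% of it in Ecad female 4, at 119 TPM, and 59.0% in ΔEcad male 4, at 39.9 TPM. In Ecad female 4, Krt5, Krt14 and Krt1 were at 0, and S100a8 and S100a9 were at 2137 and 6258 TPM. In ΔEcad male 4 those genes stood at 973 and 2470 TPM, beside 8.89 TPM of Krt14. Cdsn formed 82.9% of the sum in ΔEcad female 3, at 46.0 TPM with Lor and Krt14 at 0, and Abca12 53.1% in Ecad female 2. In 3 of these 4 tumours Krt14 was at 0. The part of S100a8-expressing cells in the Asprv1 level was not tested.

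**Figure D4:**
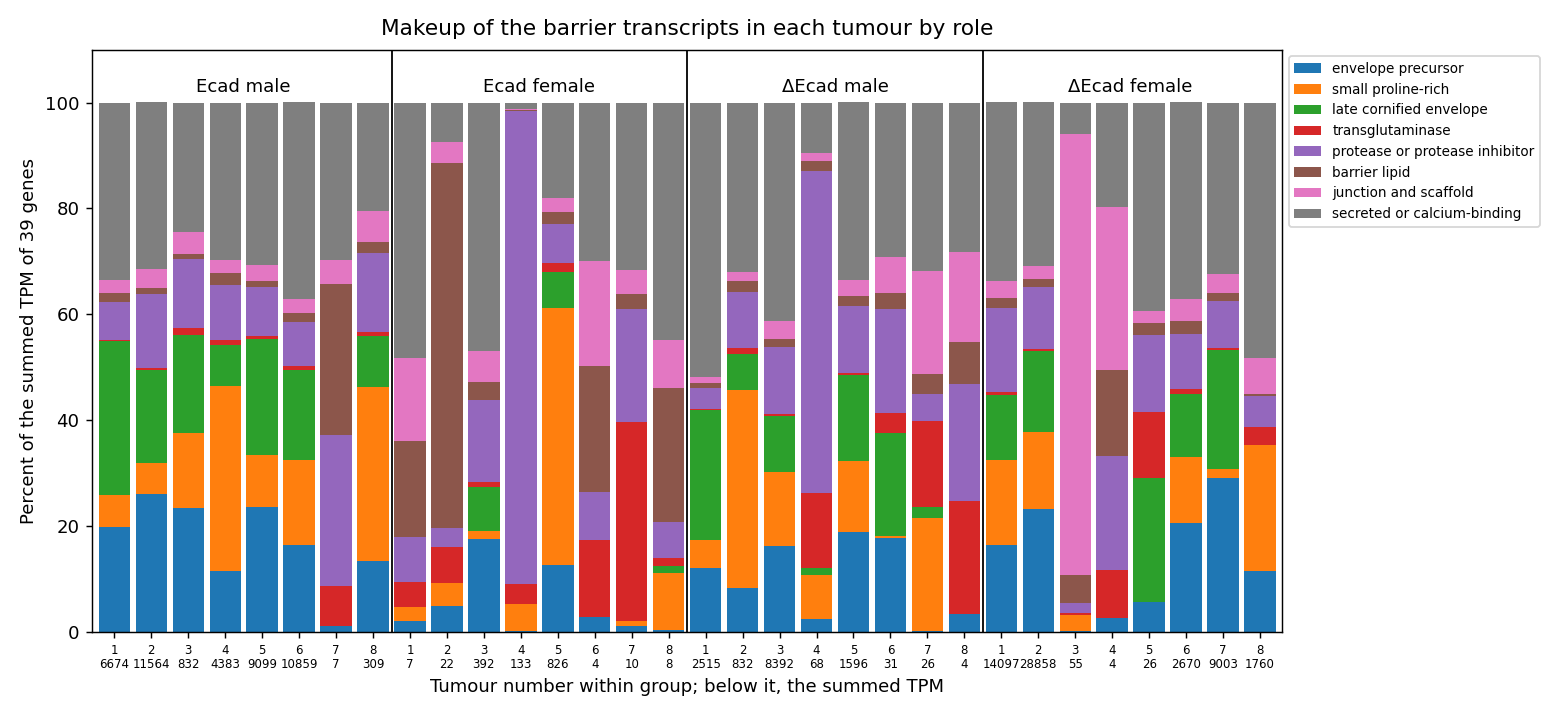
Percent of the summed TPM of the 39 genes held by each role in each tumour (stacked bars, 100% each), with the tumour number and the summed TPM under each bar. Proteases fill 89.2% of Ecad female 4 and junction genes 83.2% of ΔEcad female 3, and late cornified envelope genes hold 0.025% in ΔEcad female 8.

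The first comparison is between tumours labelled ΔEcad and Ecad in females. The fitted level in females was above that of Ecad tumours in ΔEcad tumours for 38 of the 38 tested members, with a median log2 fold change of 4.96 (from 0.83 to 10.6), beside -0.02 over all genes tested. The call rule (adjusted p below 0.05, with a log2 fold change beyond 1 in either direction) was met by 1 member, Sprr4, where 1.16% of all 17717 genes tested were called higher. At an unadjusted p under 0.05, 32 members were higher, where 11.2% of all genes were. All 7 envelope precursors, all 5 proteases or inhibitors, all 5 secreted or calcium-binding members and all 3 junction and scaffold genes were among them, but only 2 of the 5 small proline-rich genes tested. DESeq2 called 27 members higher, where it called 6.67% of all genes. Limma voom with quality weights called 0, with 23 at an unadjusted p under 0.05, where 11.4% of all genes were higher at that p. The filter on low counts asks for a minimum level in as many tumours as a group holds, counted over all groups together. Members near 0 in Ecad females could thus pass it through tumours of the other groups, so these counts are descriptions.

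In the same comparison the fitted level was higher in ΔEcad females for 6 of 7 basal, 4 of 5 suprabasal and 10 of 10 hair follicle genes, with median log2 fold changes of 5.22, 5.36 and 8.41. Of the hair follicle list 8 of 10 genes were called higher, where 1.16% of all genes were. Of the basal and suprabasal lists 0 of 7 and 0 of 5 were called. At an unadjusted p under 0.05, 4 and 4 of them were higher, where 11.2% of all genes were. Of the mucosal list 2 of 3 tested genes were called higher, of the sebaceous gland list 0 of 6, with 6 at an unadjusted p under 0.05, and of the melanocytic list 0 of 6, with a median of -0.92. The hair follicle count was 10 with DESeq2, where it called 6.67% of all genes higher, and 0 with limma voom. The edgeR count lay between 0 and 10 when 1 tumour was left out. The mucosal calls were Krt4 and Crnn, which is also on the list of other barrier genes below. That mucosal list had 3 calls with DESeq2 and 0 with limma voom, and between 0 and 2 when 1 tumour was left out. The members were also fitted with the mean log2 level of the basal list as a covariate. That list followed the members over the tumours and was itself higher in ΔEcad females. A shift towards smaller differences is therefore partly built into the fit, and the part of skin content was not tested. In that fit, 0 members were called, and the log2 fold change was above 0 for 10 members and below 0 for 28, with a median of -0.38. At an unadjusted p under 0.05, 3 members were higher and 5 lower in ΔEcad females, where 8.15% of all genes passed in either direction. The 3 were Cdsn at 3.70 ± 0.95 SE, Sprr4 at 4.26 ± 1.75 and Casp14 at 1.92 ± 0.93. The 5 were Abca12, Sprr1b, Sprr2d, Sprr2h and Spink5, between -4.25 and -1.70. Cdsn stood at 46.0 TPM in ΔEcad female 3 and Abca12 at 11.5 TPM in Ecad female 2, where Krt14 was at 0. The covariate fit was not repeated without single tumours.

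**Figure D5:**
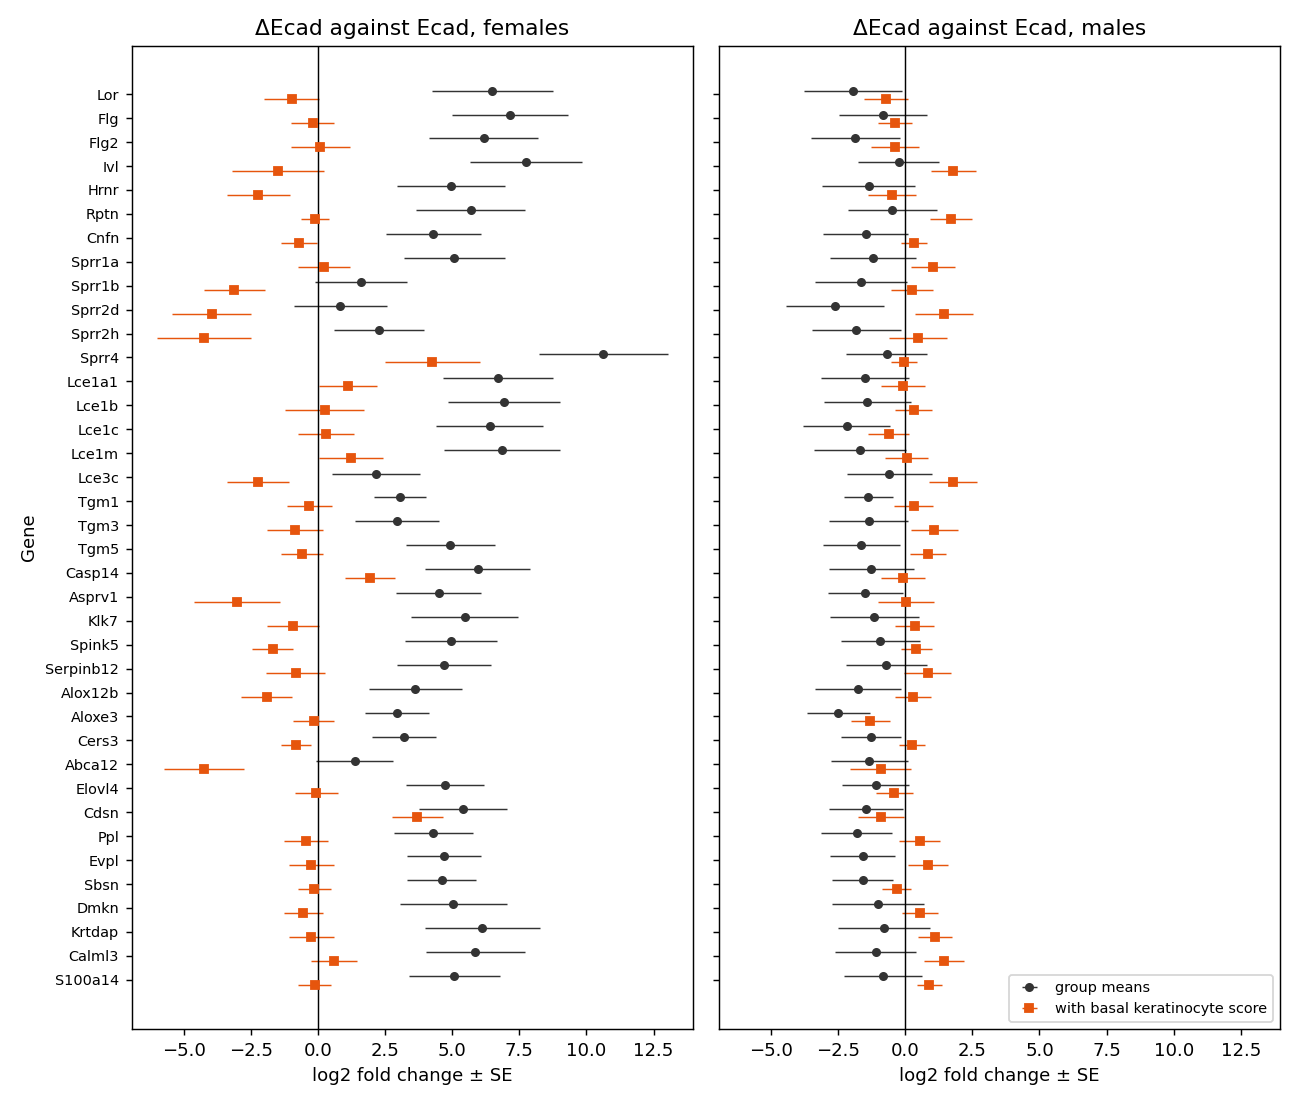
Log2 fold change (± SE) of ΔEcad against Ecad for each of 38 tested members, in females (left) and males (right), from group means (circles) and with the basal keratinocyte score as a covariate (squares). In females all circles lie above 0, with a median of 4.96, and the squares lie around 0, 28 of them below it.

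The count of members called in females moved with single tumours. A fit without 1 tumour changes the spread and the adjustment of all genes. The share of all genes called is not given for any such fit. These counts are therefore not read as a result about the members. Without Ecad female 5, the Ecad female with the highest summed level, 17 members were called: Casp14, Cdsn, Cnfn, Elovl4, Evpl, Flg, Ivl, Lce1a1, Lce1b, Lce3c, Rptn, S100a14, Sbsn, Sprr1a, Sprr1b, Sprr4 and Tgm1. Without ΔEcad female 4 or 5, tumours low in the members, 10 and 8 were called, and without ΔEcad female 3 or Ecad male 7, 4 each. Without ΔEcad male 3, ΔEcad male 7 or ΔEcad female 8 the count was 3, and without Ecad male 3 or ΔEcad male 4, 6 or 8 it was 2. Without any 1 of Ecad females 1, 2, 3, 4, 6, 7 and 8 or ΔEcad females 1, 2 and 7, 0 were called. Without ΔEcad male 2 the count was 1, again Sprr4.

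In males the members pointed the other way and none passed. The fitted level was lower in ΔEcad than in Ecad males for 38 of the 38 members, with a median log2 fold change of -1.37, beside 0.11 over all genes. EdgeR, DESeq2 and limma voom each called 0 members, and edgeR called 0% of all genes lower. At an unadjusted p under 0.05, 1 member was lower, where 3.05% of all genes were. It was Aloxe3, at a log2 fold change of -2.50 (SE 1.17 by edgeR, adjusted p = 0.48). Tgm1, Sprr2d, Sbsn and Ppl followed, at -1.37 ± 0.93, -2.61 ± 1.82, -1.58 ± 1.13 and -1.80 ± 1.32 SE (edgeR adjusted p from 0.60 to 0.63). Without ΔEcad male 2 the median was -1.35, and without ΔEcad male 7 it was -1.20. Without ΔEcad male 3 it was -2.36, with 4 members at an unadjusted p under 0.05, and 0 members were called in all 3 cases. With the basal covariate the value was above 0 for 25 of 38 members, with a median of 0.31.

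The third comparison is between the sexes in Ecad tumours. The fitted level was lower in Ecad females than in Ecad males for 38 of the 38 members, with a median log2 fold change of -4.32, beside 0.05 over all genes. EdgeR called 0 members, where it called 0.0395% of all genes lower, and 31 members were lower at an unadjusted p under 0.05, where 10.3% of all genes were. DESeq2 called 23 members lower, where it called 5.26% of all genes, and limma voom 0, with 38 at an unadjusted p under 0.05, where 18.6% of all genes were lower at that p. Sprr4, Ivl, Sbsn, Lce1b and Lce1m had the smallest p, with log2 fold changes of -9.22 ± 2.31, -6.92 ± 2.01, -4.16 ± 1.26, -6.66 ± 2.06 and -6.87 ± 2.16 SE (edgeR adjusted p from 0.087 to 0.12). The basal list had medians of 101 TPM in Ecad females and 3559 TPM in Ecad males, and with the basal covariate the value was above 0 for 24 of 38 members, with a median of 0.29. This comparison shares the Ecad females with the first one, and the same 8 tumours enter both.

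In ΔEcad tumours no member separated the sexes past the test. The fitted level was higher in females for 37 members and lower for 1, with a median log2 fold change of 1.85, beside -0.06 over all genes. EdgeR, DESeq2 and limma voom each called 0 members, and edgeR called 0.00564% of all genes higher. No member was higher at an unadjusted p under 0.05 in edgeR (0 of 38), where 3.32% of all genes were, and 2 were in DESeq2 and 0 in limma voom. Tgm1, Sbsn and Evpl had the smallest p, with log2 fold changes of 1.67 ± 0.93, 2.02 ± 1.15 and 2.03 ± 1.23 SE (edgeR adjusted p from 0.61 to 0.65). Without ΔEcad male 2 the median was 1.79, without ΔEcad female 2 it was 1.05, and without ΔEcad male 3 it was 2.90, with 12 members at an unadjusted p under 0.05. With the basal covariate it was -0.66, with 30 of 38 members below 0.

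The interaction asks whether the genotype difference itself differed between the sexes. It was positive, that is higher in females, for 38 of the 38 members, with a median log2 difference of 6.17, beside -0.16 over all genes. EdgeR called 0 members and 0% of all genes higher, and 32 members were higher at an unadjusted p under 0.05, where 10.7% of all genes were. DESeq2 called 22 members, where it called 6.19% of all genes higher, and limma voom 0, with 38 at an unadjusted p under 0.05, where 14.9% of all genes were higher at that p. Sprr4, Sbsn, Evpl, Lce1c and Tgm1 had the smallest p, with values of 11.3 ± 2.77, 6.19 ± 1.69, 6.28 ± 1.82, 8.57 ± 2.53 and 4.43 ± 1.34 SE (edgeR adjusted p from 0.053 to 0.073). The basal list was higher at an unadjusted p under 0.05 in the interaction for 6 of 7 genes, and with the basal covariate the value was below 0 for 27 of 38 members, with a median of -1.04. The counts without single tumours stand here without the share of all genes called in the same fit. They are not read as a result about the members. Without ΔEcad male 3, the ΔEcad male with the highest summed level, 16 members were called, and without Ecad female 5, 14. Without Ecad male 7, ΔEcad female 3 or ΔEcad female 4 the count was 5 each, without ΔEcad female 5 it was 3, without Ecad male 3 or ΔEcad female 8 it was 2, and without Ecad male 8 it was 1. Without ΔEcad male 2 or ΔEcad male 7 it was 0.

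Other genes of the barrier outside the 39 were taken from a list chosen, like the members, with earlier results of these data known. Of a list of 70 (further Sprr, Lce, kallikrein, peptidylarginine deiminase lipid and desmosome genes), 67 were tested, and in females 7 were called higher and 0 lower, with a median log2 fold change of 4.53, where 1.16% of all genes were called higher. DESeq2 called 39 of them, where it called 6.67% of all genes higher. Limma voom, the fit of the groups compared alone and the fit with tumour number as a block each called 0. Without any 1 of Ecad females 1, 2, 3, 4, 6, 7 and 8 or ΔEcad females 1, 2 and 7 the count was 0, and it was highest, at 30, without Ecad female 5. Padi3, Padi1 and Spink12 had the smallest p. Padi3 and Padi1 encode enzymes that convert arginine to citrulline in filaggrin and other proteins, and Spink12 a protease inhibitor. Padi3 was at or under 0.17 TPM in every Ecad female. It reached 50.4 TPM in ΔEcad female 2 and lay between 0 and 5.06 TPM in the other ΔEcad females. Its log2 fold change was 7.04 (SE 1.61 by edgeR, adjusted p = 0.039). Padi1 and Spink12 had values of 5.64 ± 1.30 and 6.95 ± 1.61 SE (edgeR adjusted p = 0.039 each), and Spink12 was highest in ΔEcad female 8, at 16.5 TPM. In the fit with the basal covariate, 0 of the 67 were called in females.

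Of a list of 19 regulators of epidermal differentiation, all tested, 2 were called higher and 0 lower in ΔEcad females, where 1.16% of all genes were called higher. Their median log2 fold change was 2.96. Gata3, a transcription factor of epidermal and hair fates, had a lowest, median and highest level of 0, 0.125 and 1.06 TPM in Ecad females and of 0, 6.09 and 99.6 in ΔEcad females, with a log2 fold change of 6.37 (SE 1.51 by edgeR, adjusted p = 0.039). Cebpa, a factor of keratinocyte differentiation that other cells also express, rose by 2.52 ± 0.63 SE (edgeR adjusted p = 0.045), from a median of 25.3 to 57.8 TPM. Hopx, a homeodomain-only protein gene, missed the threshold at 2.96 ± 0.79 SE (edgeR adjusted p = 0.052). DESeq2 called 9 of the 19, where it called 6.67% of all genes higher, and limma voom, the fit of the groups compared alone and the block fit 0. The call of Gata3 was lost without any 1 of the 10 tumours just named for the barrier genes, and that of Cebpa also without Ecad male 1, 2 or 4 or ΔEcad male 2 or 5. In males 0 of the 67 and 0 of the 19 were called, with median log2 fold changes of -1.40 and -0.98.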

How the data were processed

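Poly(A) RNA of 32 mouse melanomas was sequenced by the authors as stranded libraries and mapped with STAR to mm10 (GRCm38.p5). The submitters' processing notes also name FastQC 0.11.5. The authors deposited raw counts per gene and TPM values per gene. Their methods describe batch correction where applicable, without saying whether it was applied to these tumours. Symbols and coordinates came from GENCODE M21, which named 50376 of 50600 identifiers, and promoter windows from RefSeq. All 39 members were found.

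Counts were tested with edgeR 4.0.16 (R 4.3.3), by a two-sided quasi-likelihood test with robust estimation, TMM factors, filterByExpr by group with a minimum count of 10, and Benjamini-Hochberg adjustment, in 1 model of the 32 tumours with a coefficient per group. It tested 17717 genes and had a common dispersion of 0.624. A gene was called where its adjusted p was below 0.05 and its log2 fold change beyond 1 in either direction, and the SE was derived from the test statistic. The fit was tested on simulated counts. Levels are TPM. Total counts ranged from 24036333 to 63923086, and 3 counts were taken as what a count of 0 allows. Alternatives used DESeq2 1.42.0, limma 3.58.1, other size factors, no filter, fewer groups, tumour number as a block, a basal keratinocyte covariate and single libraries left out. Figures were drawn with matplotlib.

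All 39 members were described by level. Fold changes are given for the tested members with the smallest p (10, 5, 5, 3 and 5 in the 5 comparisons) and for 3 genes each of 2 further lists, with Cdh1 as the targeted gene. The members and lists were chosen with earlier results of these data known. Columns of no known sample numbered 0.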

Additional observations from a re-analysis of the deposited data

Results flagged for a closer look

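The tumours of each group were examined for a value far from the other 7, as log2 CPM, in 152 sets of 8 values. A value stood apart where its gap to the next one, as a share of the group's range, passed Dixon's 95% critical value. The critical value flags about 1 set in 20 by chance where values are normal and not tied. Many sets here hold tumours tied at a count of 0, so that rate does not apply to them. For Rptn in Ecad females the other 7 tumours were all at 0, so any count would have been flagged. Of the 152 sets, 15 were flagged, a number that is not set against the chance rate. The flags are not independent, since the members vary together over the tumours.

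Ecad male 7 was the low tumour in 10 of them, against the other 7 Ecad males. Its log2 CPM values were -3.54 for Lor, -2.10 for Cdsn, -2.79 for S100a14 and -4.14 for Dmkn, and -5.19, the value of a count of 0, for Cnfn, Sprr1a, Lce1a1, Klk7, Krtdap and Calml3. In TPM, Lor was at 0.09 in this tumour and between 32.6 and 2593 in the other Ecad males. Krt5 and Krt14 were at 0 there, and its melanocytic list, at 72354 TPM, was the highest of the Ecad males.

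Ecad female 5 was the high tumour in 4, with log2 CPM values of 1.26 for Rptn, 4.89 for Sprr1a, 5.29 for Sprr1b and 1.70 for Lce3c. Sprr1b stood at 149.6 TPM there, against at most 1.31 TPM in the other Ecad females. Sprr3 in ΔEcad female 8 was the other one, at 3.70, with 38.3 TPM against at most 0.06 TPM in the other ΔEcad females. The causes were not tested.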

How the results depend on the processing

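With no threshold on the fold change, each count of members called was the same. In females the count of 1 became 27 with DESeq2, 2 with RLE size factors, 2 without a filter on low counts (39 members tested), and 0 with limma voom, with only the groups compared (16 members tested), with the basal covariate and with tumour number as a replicate block. For sex in Ecad tumours the count of 0 became 23 with DESeq2, and for the interaction 22 with DESeq2 and 1 each with RLE size factors and without a filter. Leaving out 1 tumour gave between 0 and 17 called in females and between 0 and 16 for the interaction, and 0 throughout for the male genotype and both sex comparisons. The share of all genes called in each of those fits is not given.

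With the basal keratinocyte covariate, log2 fold changes turned direction for Ivl (-1.49), Sbsn (-0.13), Evpl (-0.25), Flg (-0.20) and Elovl4 (-0.0661) in females, for Tgm1 (0.31), Sprr2d (1.45) and Ppl (0.53) in males, for Ivl (1.65) and Sbsn (0.28) by sex in Ecad tumours, for Tgm1 (-0.16) and Evpl (-0.63) by sex in ΔEcad tumours, and for Evpl (-1.11) and Tgm1 (-0.63) in the interaction. Those are the named members only, and counts over all 38 stand beside each comparison. No named value turned direction under the other settings run. The adjusted p of Sprr4 in females ranged from 7.82e-05 to 0.497 over its alternatives.

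Tumour numbers were checked for pairing by the correlation of same-numbered tumours' deviations from their group means. Pairs over 0.1 numbered 2 of 8 for the female genotype (from -0.304 to 0.296), 4 for the male genotype, 3 for sex in Ecad and 2 for sex in ΔEcad tumours, so in no comparison did every pair pass and the numbers were not taken as pairs, and under the replicate block Sprr4 had a log2 fold change of 10.6 with an adjusted p of 0.126.

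Limits: the dispersion between tumours was high, so differences of the size seen in males could not be told from the spread. Genes near 0 in a group have fold changes that depend on the prior count.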
